A study of Homo sapiens with 18 samples.

Results

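The genes described here are MYC and 41 genes of the nucleolus whose proteins make ribosomes: subunits of RNA polymerase I, the core proteins of the small nucleolar ribonucleoproteins (snoRNPs) and the factors that process pre-ribosomal RNA and assemble the small and large ribosomal subunits. They were chosen by symbol from a list of known function, with earlier results of these data known. The shares of them called below are therefore not those of a list chosen blind to the data. Of these genes, 42 of 42 were found among the 58037 gene identifiers counted. All 42 were among the 15185 genes with enough counts to test, and the fewest counts of any of them in any library was 70, for GAR1. RNA had been sequenced from LNCaP, an established prostate cancer cell line that responds to androgen, grown in serum stripped of steroids with charcoal. Each culture received a pool of small interfering RNAs (siRNAs) against E2F2, a pool against E2F1 or a non-targeting control pool, and later either 0.1 nM R1881, a synthetic androgen, or ethanol vehicle, with harvest 48 h after that addition. This gave 6 groups of 3 biological replicates: E2F2 siRNA with R1881, E2F1 siRNA with R1881, control siRNA with R1881, E2F2 siRNA with vehicle, E2F1 siRNA with vehicle and control siRNA with vehicle. All 6 groups share the cell line, the stripped serum and the transfection reagent, and no untransfected cells or single siRNAs were among the samples, so each effect is that of a pool in 1 line. The interval between transfection and R1881 is given as 42 h in one description and 48 h in another.

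Ribosomes are built mainly in the nucleolus, where RNA polymerase I transcribes the ribosomal RNA precursor, snoRNPs guide its methylation and pseudouridylation, and large assemblies of processing factors cut it and fold it with ribosomal proteins. MYC is a transcription factor that pairs with MAX, binds the E-box CACGTG and is known to activate many genes of this pathway, and the pathway as a whole is more active in growing cells. E2F1 and E2F2 are transcription factors held in check by the retinoblastoma protein and are known for driving entry into S phase. In prostate cancer cells androgen stimulates growth through the androgen receptor.

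The siRNA pools lowered their targets, and the E2F2 pool lowered E2F1 as well. E2F2 had 0.0845, 0.0836 and 0.416 CPM (counts scaled to library size with TMM factors) in the E2F2 siRNA R1881 libraries, against 3.34, 2.36 and 4.58 CPM in the control siRNA R1881 libraries. With vehicle it had 0.277, 0 and 0.0861 CPM with E2F2 siRNA, against 2.23, 1.45 and 3.20 CPM with control siRNA. These falls passed the test under both treatments (edgeR adjusted p = 3.73e-05 with R1881 and 0.00015 with vehicle). With E2F1 siRNA, E2F2 had 1.15, 1.68 and 1.53 CPM with R1881, wholly below the control libraries though not called (log2 fold change -1.22 ± 0.38, edgeR adjusted p = 0.0586), and 1.39, 1.77 and 2.46 CPM with vehicle (edgeR adjusted p = 0.817). E2F1 averaged 24.1 ± 2.29 CPM with the E2F2 pool, 9.70 ± 0.878 CPM with the E2F1 pool and 74.4 ± 6.32 CPM with the control pool, all with R1881 (mean ± SD, n = 3 each). With vehicle it averaged 12.6 ± 2.24 CPM with the E2F2 pool, 6.83 ± 1.68 CPM with the E2F1 pool and 37.3 ± 5.00 CPM with the control pool. E2F1 thus fell with either pool under both treatments (edgeR adjusted p = 1.69e-06 and 3.71e-06 for the E2F2 pool and 2.5e-07 and 5.11e-07 for the E2F1 pool, with R1881 and with vehicle), and effects of the E2F2 pool were measured with both factors reduced. Libraries held 10930204 to 14819879 counts. Replicate 3 stood apart from replicates 1 and 2 in every group: the chi-square per degree of freedom over genes was 1.786 to 4.422 between replicates 1 and 2 and 7.984 to 92.5 for pairs with replicate 3, with control siRNA vehicle replicate 3 the farthest. Counts of calls are therefore also given for replicates 1 and 2 alone. Without replicate 3 the spread between replicates is smaller, and that fit calls more of all genes. For E2F2 siRNA against control siRNA with R1881 it called 51.4% of them, against 30.3% with all replicates. Its higher counts are therefore not a firmer result. Luminal prostate markers summed to 4558 to 9150 CPM in every library, while 13 markers of blood, stromal, endothelial and basal cells took 0.00217 to 0.00885% of counts, with 6 to 9 of the 13 at 0 in each library and CD3E at 0 in all 18. COL1A1 and VWF gave 4276 and 4275 of these counts over the 18 libraries, while PTPRC, COL1A2, DCN, PECAM1, CDH5, KRT5 and TP63 had 7 or fewer each. KRT14 and COL3A1 had enough counts to test and moved with R1881. In E2F1 siRNA cells their log2 fold changes against vehicle were 3.66 ± 0.50 and -2.25 ± 0.25 (edgeR adjusted p = 4.81e-05 and 5e-06).

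The summed level of the 42 genes was highest in control siRNA cells with R1881 and lowest in E2F2 siRNA cells with vehicle. The sum was 4284 ± 80.8 CPM with E2F2 siRNA, 5951 ± 49.2 CPM with E2F1 siRNA and 6786 ± 161 CPM with control siRNA under R1881, and 3484 ± 28.4 CPM with E2F2 siRNA, 5478 ± 145 CPM with E2F1 siRNA and 4879 ± 195 CPM with control siRNA under vehicle (mean ± SD, n = 3 each). All neighbours in this order were separated by more than the SD of either group. By gene, the highest of the 6 group means was in control siRNA R1881 cells for 38 of the 42. The exceptions were GNL3, highest with E2F1 siRNA and R1881, and POLR1A, NOP10 and DDX18, highest with E2F1 siRNA and vehicle. The lowest mean was in E2F2 siRNA vehicle cells for 36 genes, and for 32 of the 42 the mean in E2F2 siRNA cells given R1881 was also below that in control siRNA cells given vehicle. Per kilobase of exon, NPM1, NOP10 and NCL had the highest levels of the 42, at 203, 193 and 122 CPM per kb over all 18 libraries, and MYC followed in seventh place at 58.8 CPM per kb. Library preparation captured exons, and how evenly it did so between genes was not measured, so this order is only a rough guide.

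**Figure D1:**
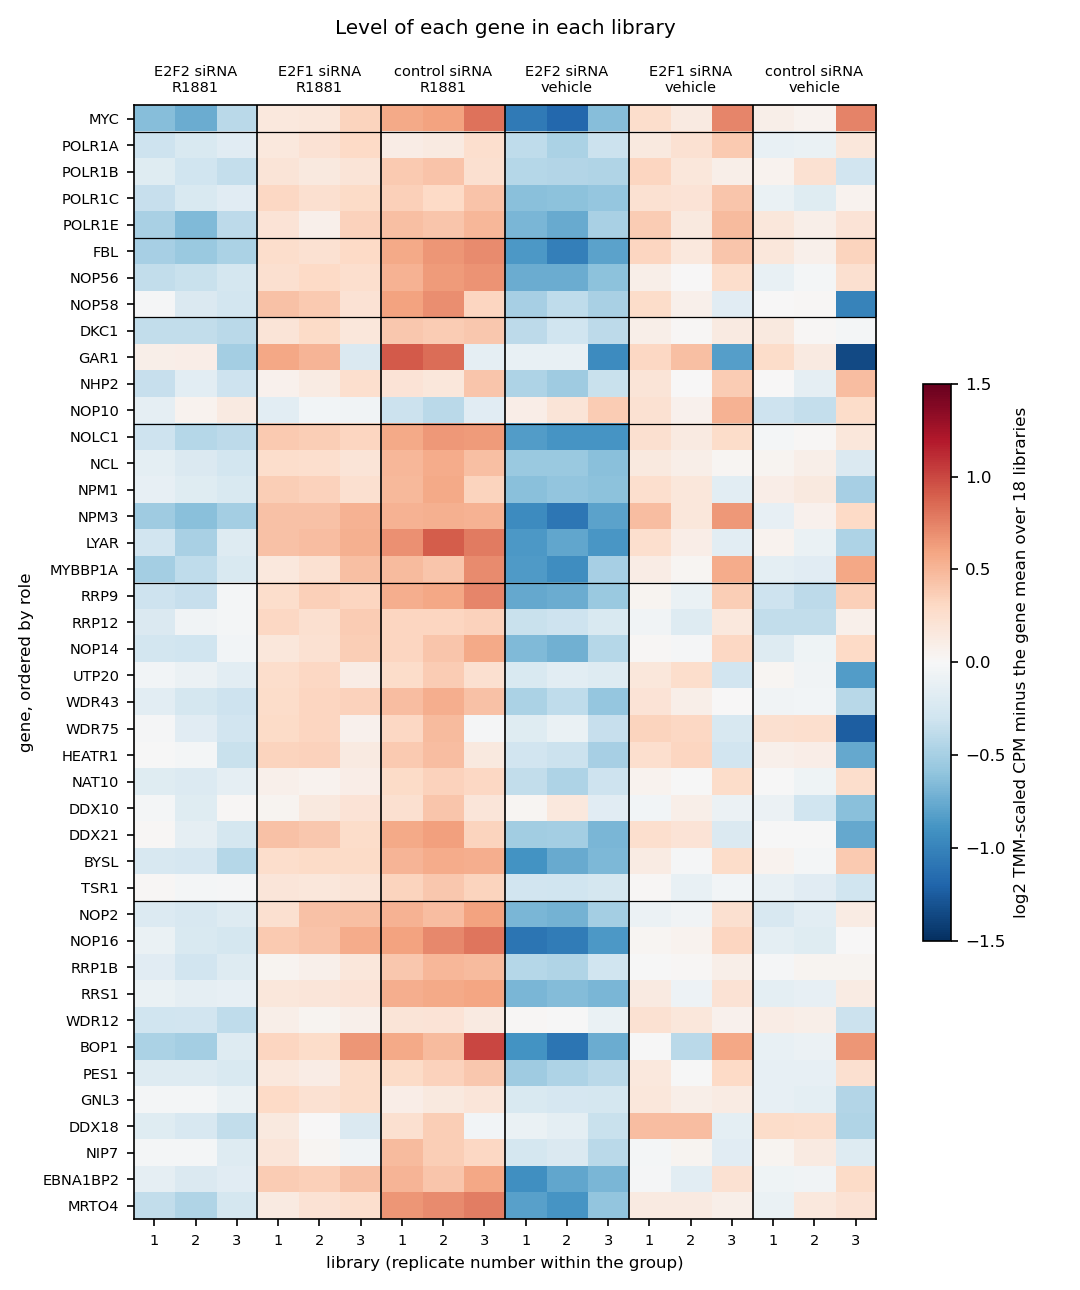
Each row is 1 of the 42 genes, ordered by role from MYC and RNA polymerase I at the top to large subunit factors at the bottom, and each column is 1 of the 18 libraries, in 6 groups of 3. Colour gives log2 TMM-scaled CPM minus the mean of that gene over the 18 libraries, blue for lower and red for higher; the E2F2 siRNA columns are blue for most genes and the control siRNA R1881 columns are red, while NOP10 runs the other way and GAR1, WDR75, UTP20 and HEATR1 are low in replicate 3 of the control siRNA vehicle group.

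MYC itself was lowest with E2F2 siRNA. Its level was 104, 97.0 and 123 CPM in the 3 E2F2 siRNA R1881 libraries, 182, 183 and 205 CPM in the E2F1 siRNA R1881 libraries and 241, 247 and 286 CPM in the control siRNA R1881 libraries. With vehicle it was 78.1, 72.1 and 105 CPM with E2F2 siRNA, 195, 178 and 269.8 CPM with E2F1 siRNA and 172, 168 and 272 CPM with control siRNA. Replicate 3 was the highest library of every group, and both E2F2 siRNA groups lay wholly below every library of the other 4 groups. MYC fell with E2F2 siRNA under both treatments: the log2 fold change against control siRNA was -1.26 ± 0.20 with R1881 and -1.26 ± 0.20 with vehicle (± SE), that is to 41.9% and 41.6% of control (edgeR adjusted p = 0.000155 and 0.000178). MYC lies on chromosome 8 of GRCh38, from 127735434 to 127741434 on the plus strand; of the genes named most often below, NOLC1 lies on chromosome 10 from 102152176 to 102163871 on the plus strand, FBL on chromosome 19 from 39834458 to 39846414 on the minus strand and NOP10 on chromosome 15 from 34341713 to 34343177 on the minus strand.

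E2F2 siRNA lowered most of the 42 genes in cells given R1881. Against control siRNA, 34 of the 42 fell and 0 rose at an edgeR quasi-likelihood adjusted p under 0.05, where 30.3% of all 15185 tested genes were called in either direction and 14.4% were called lower. The median log2 fold change was -0.68 over the 42 genes and 0.03 over all tested genes, and the range ran from -1.26 for MYC to 0.32 for NOP10. The 3 E2F2 siRNA libraries did not overlap the 3 control siRNA libraries for 40 of the 42 genes, against 49% of all tested genes. In RNA from whole cultures, fewer cells that express a gene and less RNA per cell cannot be told apart, and CPM are shares of each library, so the total RNA of a cell was not measured. The long nuclear RNA MALAT1 moved with the E2F2 pool, taking 4.58 ± 0.408% of counts with E2F2 siRNA, against 1.61 ± 0.314% with control siRNA, both with R1881 (mean ± SD, n = 3), and its part in these results was not tested. The 13 markers of other cell types took 0.00433 to 0.00533% of counts with E2F2 siRNA, against 0.00345 to 0.00369% with control siRNA, and their part was not tested either. With the replicate number added as a block, 40 of the 42 genes were called lower and NOP10 was called higher, where 45.6% of all genes were called. With replicates 1 and 2 alone, 41 were called lower and NOP10 higher, where 51.4% of all genes were called.

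The 4 RNA polymerase I subunits among the 42 genes all fell. Other subunits of this enzyme were tested too and are given below with the other genes of the pathway. The log2 fold change was -0.97 ± 0.11 for POLR1E, part of the dissociable subcomplex that helps initiation, -0.63 ± 0.11 for POLR1B and -0.40 ± 0.09 for POLR1A, the large catalytic subunits, and -0.61 ± 0.09 for POLR1C, which RNA polymerase III also uses (± SE). In all 4 every E2F2 siRNA library was below every control siRNA library. POLR1E, for example, had 28.7, 25.5 and 30.7 CPM with E2F2 siRNA, against 55.3, 54.0 and 56.9 CPM with control siRNA.

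The 3 box C/D proteins, which build the snoRNPs that methylate ribosomal RNA, all fell. FBL (fibrillarin), the methyltransferase itself, had 65.2, 62.6 and 66.0 CPM in the E2F2 siRNA R1881 libraries, against 137, 145 and 149.8 CPM in the control siRNA R1881 libraries. Its log2 fold change was -1.15 ± 0.09 (± SE), a level of 44.9% of control (edgeR adjusted p = 1.69e-07). NOP56, a scaffold of the same particle, had 129, 132 and 139.7 CPM with E2F2 siRNA, against 239.8, 261 and 267 CPM with control siRNA, a log2 fold change of -0.93 ± 0.09 (edgeR adjusted p = 2.04e-06). Its partner NOP58 changed by -0.72 ± 0.20 (edgeR adjusted p = 0.0135).

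Box H/ACA proteins, which form the pseudouridylation particles, split. DKC1 (dyskerin), the pseudouridine synthase, had 76.4, 76.1 and 74.4 CPM with E2F2 siRNA, against 130.1, 128 and 130.4 CPM with control siRNA, and fell by 0.78 on the log2 scale (SE 0.07, edgeR adjusted p = 5.58e-07). NHP2 fell too, with a log2 fold change of -0.54 ± 0.14. GAR1, at 12.7, 12.8 and 8.40 CPM with E2F2 siRNA and 22.7, 21.4 and 10.9 CPM with control siRNA, was not called (log2 fold change -0.70 ± 0.41, edgeR adjusted p = 0.22), and replicate 3 was the lowest library of both groups; with the replicate block it was called lower (adjusted p = 0.00125). NOP10, the smallest protein of the particle, had 95.6, 109.7 and 116 CPM with E2F2 siRNA, against 84.2, 79.3 and 93.3 CPM with control siRNA. The groups did not overlap and the E2F2 siRNA libraries were the higher ones, with a log2 fold change of 0.32 ± 0.16 (edgeR adjusted p = 0.135; with the replicate block, adjusted p = 0.0145).

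Each of the 6 nucleolar phosphoproteins and chaperones fell, with a median log2 fold change of -0.95. NOLC1, a chaperone that binds snoRNPs and shuttles between nucleolus and Cajal bodies, had the smallest p of the 42 genes. It had 186, 172 and 176 CPM in the E2F2 siRNA R1881 libraries, against 343, 364 and 359.8 CPM in the control siRNA R1881 libraries, and was 2.00-fold lower (log2 fold change -0.998 ± 0.07, edgeR adjusted p = 5.95e-08). LYAR, a nucleolar protein of growing cells, changed by -1.11 ± 0.13 and NPM3, a relative of nucleophosmin, by -1.08 ± 0.13. MYBBP1A, which takes part in ribosomal RNA synthesis, changed by -0.91 ± 0.19. The abundant chaperones NCL (nucleolin) and NPM1 (nucleophosmin) changed by -0.72 ± 0.07 and -0.64 ± 0.14. NPM1 has 45 processed pseudogenes in GENCODE 29, and how reads that match several places were counted was not given in the sources used here, so its level is less certain than the others.

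Of the 12 factors of the small subunit, 8 fell: RRP9, BYSL, WDR43, NOP14, DDX21, NAT10, RRP12 and TSR1, with log2 fold changes between -0.84 for RRP9 and -0.37 for TSR1. RRP9 is a protein of the snoRNP that guides the first cuts of the precursor, BYSL and TSR1 act in late maturation, and NAT10 acetylates cytidines of ribosomal RNA. The other 4, the helicase DDX10 and the processome proteins UTP20, WDR75 and HEATR1, had log2 fold changes of -0.34 ± 0.13, -0.39 ± 0.17, -0.42 ± 0.28 and -0.46 ± 0.20, which did not pass the test (edgeR adjusted p = 0.0525, 0.104, 0.28 and 0.0933). With the replicate block, DDX10, UTP20 and HEATR1 were called lower (edgeR adjusted p = 0.0214, 0.0204 and 0.00249). WDR75 was the 1 gene of the 42 that the block did not call.

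Of the 12 factors of the large subunit, 10 fell. MRTO4, a relative of the ribosomal stalk protein that holds its place in the precursor, had 22.9, 21.7 and 24.7 CPM with E2F2 siRNA, against 46.7, 48.3 and 50.4 CPM with control siRNA. That is a log2 fold change of -1.07 ± 0.10 (edgeR adjusted p = 1.14e-06), with no overlap. The 3 proteins of the PeBoW complex, which is needed to process the large subunit RNA, changed by -1.08 ± 0.25 for BOP1, -0.55 ± 0.10 for PES1 and -0.50 ± 0.10 for WDR12. NOP16 changed by -0.90 ± 0.10 and NOP2, a ribosomal RNA methyltransferase, by -0.75 ± 0.11. GNL3 (nucleostemin), a nucleolar GTPase, and the helicase DDX18 were not called, at -0.19 ± 0.08 and -0.46 ± 0.19 (edgeR adjusted p = 0.067 and 0.0816; with the replicate block, 0.0268 and 0.00194). Of the 34 genes called lower with R1881, all but NOP58 and RRP12 were called under every alternative tried, single libraries left out included.

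Promoters of some of the 42 genes are shown because MYC and E2F proteins have known recognition strings. In the 250 bases upstream of the RefSeq start (GRCh38.p14), 33 of the 42 genes had a window, and the E-box CACGTG, which reads the same on both strands, was in 6 of them (18.2%): DDX21, EBNA1BP2, LYAR, NAT10, NOP10 and UTP20. Counted in the same way, by gene in any of its windows, it was in 1146 of 10105 tested genes (11.3%) and 7.73% of all 27305 genes with a window. By window, it was in 6.34% of all 35116 windows of that length. The E2F strings TTTCCCGC, TTTCGCGC, TTTGCCGC and TTTGGCGC, searched on both strands, were in 2 of the 33 (6.06%), EBNA1BP2 and PES1. By gene they were in 5.59% of tested genes and 3.4% of all genes with a window, and by window in 2.79% of all windows. In EBNA1BP2 the E-box and the E2F string lie in windows of different starts. FBL and DKC1, the genes of smallest p with a window, hold neither, and nor do MRTO4 and NOP56. NAT10, which fell with E2F2 siRNA, has 1 E-box whose first base is 15 bases before the start, and NOP10, which was not called, has 2, at 170 and 11 bases; these 2 genes were picked after their values were seen. The windows are given 5′ to 3′ on the gene's strand, from RefSeq, with CACGTG in capitals. The FBL window spans chr19:39846380-39846629 on the minus strand, DKC1 chrX:154762614-154762863 on the plus strand, NAT10 chr11:34105379-34105628 on the plus strand and NOP10 chr15:34343137-34343386 on the minus strand.
FBL: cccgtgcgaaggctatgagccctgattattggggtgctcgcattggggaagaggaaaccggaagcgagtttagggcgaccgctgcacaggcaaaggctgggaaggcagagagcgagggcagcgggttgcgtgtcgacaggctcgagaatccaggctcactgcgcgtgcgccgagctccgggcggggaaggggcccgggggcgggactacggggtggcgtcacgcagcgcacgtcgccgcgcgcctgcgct
DKC1: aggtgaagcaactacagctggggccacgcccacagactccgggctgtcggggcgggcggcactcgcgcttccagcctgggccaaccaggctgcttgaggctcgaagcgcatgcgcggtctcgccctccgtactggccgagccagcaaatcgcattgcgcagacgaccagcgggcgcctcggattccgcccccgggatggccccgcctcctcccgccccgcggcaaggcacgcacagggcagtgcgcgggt
NAT10: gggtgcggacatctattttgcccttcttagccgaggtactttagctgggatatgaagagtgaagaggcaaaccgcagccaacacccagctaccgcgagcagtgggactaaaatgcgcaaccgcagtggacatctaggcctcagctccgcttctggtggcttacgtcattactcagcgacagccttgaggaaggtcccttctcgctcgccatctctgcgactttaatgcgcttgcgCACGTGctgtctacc
NOP10: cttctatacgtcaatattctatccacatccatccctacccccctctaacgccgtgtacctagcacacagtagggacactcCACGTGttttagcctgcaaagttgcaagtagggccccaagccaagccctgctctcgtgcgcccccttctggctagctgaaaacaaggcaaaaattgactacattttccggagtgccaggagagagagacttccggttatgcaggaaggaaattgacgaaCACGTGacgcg
A match is only a string of letters in this window, and with 9 of the 42 genes lacking a window, MYC and NOLC1 among them, no relation between these strings and the changes in level was tested.

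**Figure D2:**
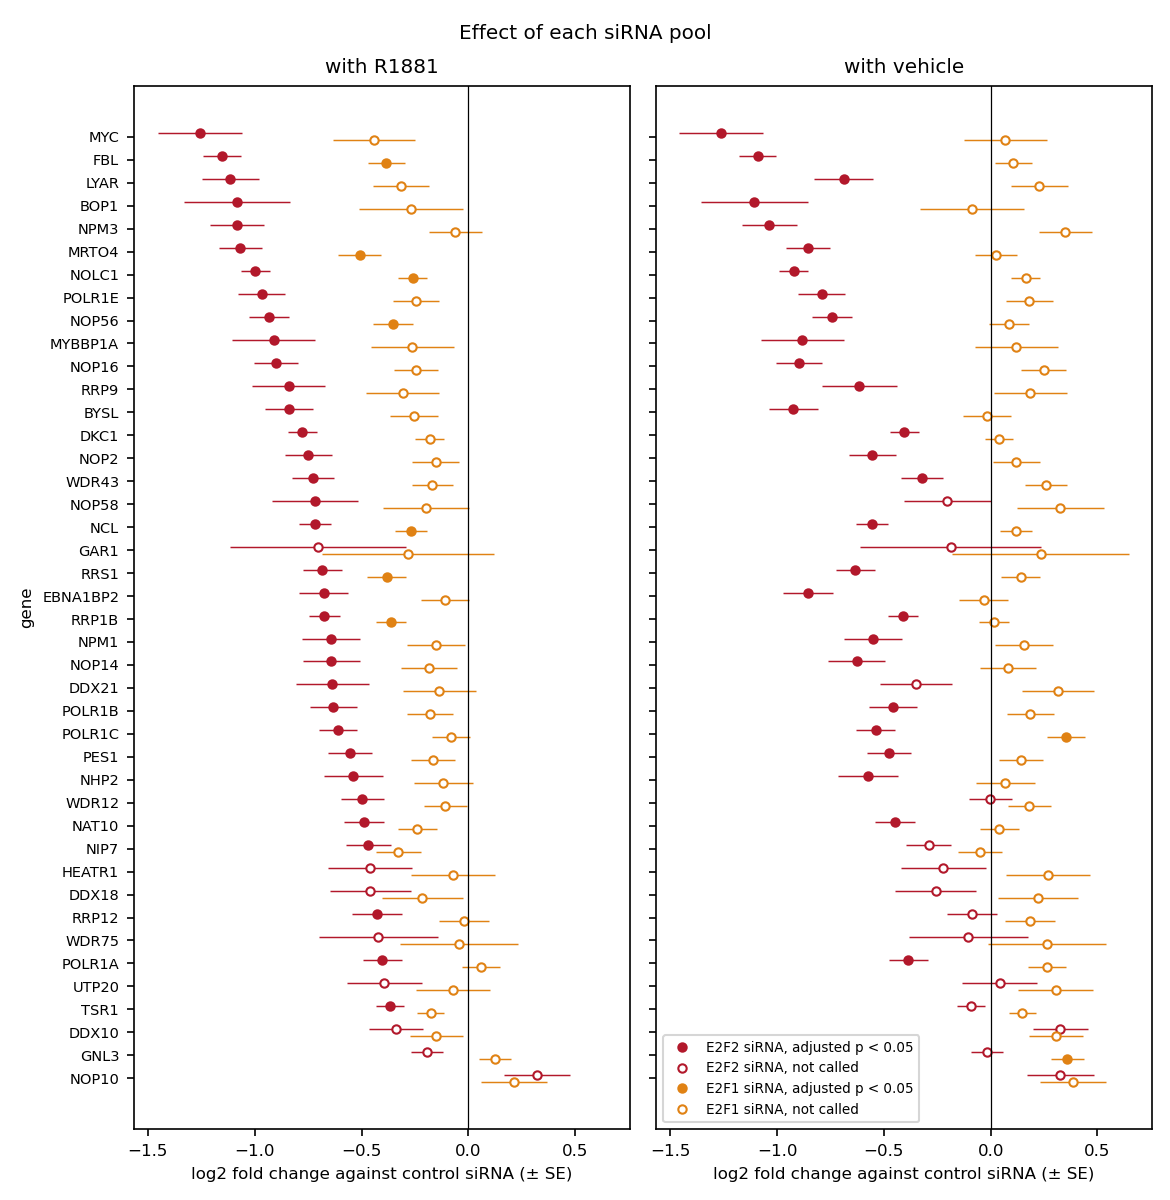
Log2 fold change of each of the 42 genes against control siRNA, with R1881 on the left and with vehicle on the right, for E2F2 siRNA (red) and E2F1 siRNA (orange); bars are ± SE from the edgeR fit, and filled points passed an adjusted p of 0.05. Red points lie left of 0 for 41 genes with R1881 and for 39 with vehicle, while orange points lie left of 0 for 39 genes with R1881 and right of 0 for 38 with vehicle.

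With vehicle, E2F2 siRNA also lowered most of the 42 genes. Against control siRNA, 28 of the 42 genes fell and 0 rose, where 27.3% of all tested genes were called and 13.1% were called lower. The median log2 fold change was -0.51, against 0.02 over all tested genes, and the groups did not overlap for 28 of the 42, against 37.3% of all genes. NOLC1 had 129.7, 125 and 125 CPM with E2F2 siRNA, against 226, 235 and 259.7 CPM with control siRNA, a log2 fold change of -0.92 ± 0.07 (edgeR adjusted p = 1.14e-07). FBL changed by -1.09 ± 0.09, NOP16 by -0.90 ± 0.11, MRTO4 by -0.86 ± 0.10 and NPM3 by -1.04 ± 0.13 (edgeR adjusted p between 3.03e-07 for FBL and 2.15e-05 for NPM3). Among the 42 genes, all 4 RNA polymerase I subunits and all 6 phosphoproteins and chaperones were again called lower, but only 5 of 12 small subunit factors were. WDR12, TSR1 and RRP12, which fell with R1881, had log2 fold changes of -0.00 ± 0.10, -0.09 ± 0.07 and -0.09 ± 0.12 with vehicle and were not called. In WDR12 and TSR1 control siRNA replicates 1 and 2 lay above every E2F2 siRNA library. Control siRNA replicate 3 was the lowest of its group for both. WDR12 had 57.6, 56.6 and 42.4 CPM with control siRNA, against 53.7, 52.8 and 49.7 CPM with E2F2 siRNA. TSR1 had 119, 114 and 104 CPM with control siRNA, against 105, 104 and 107 CPM with E2F2 siRNA. In RRP12 control siRNA replicate 3 was instead the highest of its group. Positive values came from DDX10 at 0.33 ± 0.13, NOP10 at 0.33 ± 0.16 and UTP20 at 0.04 ± 0.18. UTP20 had 86.8, 82.1 and 47.5 CPM with control siRNA, against 72.5, 76.3 and 74.1 CPM with E2F2 siRNA, so its sign rested on control siRNA replicate 3. With the replicate block DDX10 and NOP10 were called higher (edgeR adjusted p = 0.0256 and 0.0101) and 30 genes lower, where 45.3% of all genes were called. MALAT1 again differed, at 6.35 ± 1.00% of counts with E2F2 siRNA and 2.57 ± 1.15% with control siRNA, and the 13 markers of other cell types took 0.00749 to 0.00885% with E2F2 siRNA, against 0.00361 to 0.00584% with control siRNA; their part was not tested. With replicates 1 and 2 alone, 37 genes were called lower and 2 higher, where 45.7% of all genes were called. Of the 28 genes, 19 were called under every alternative.

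**Figure D3:**
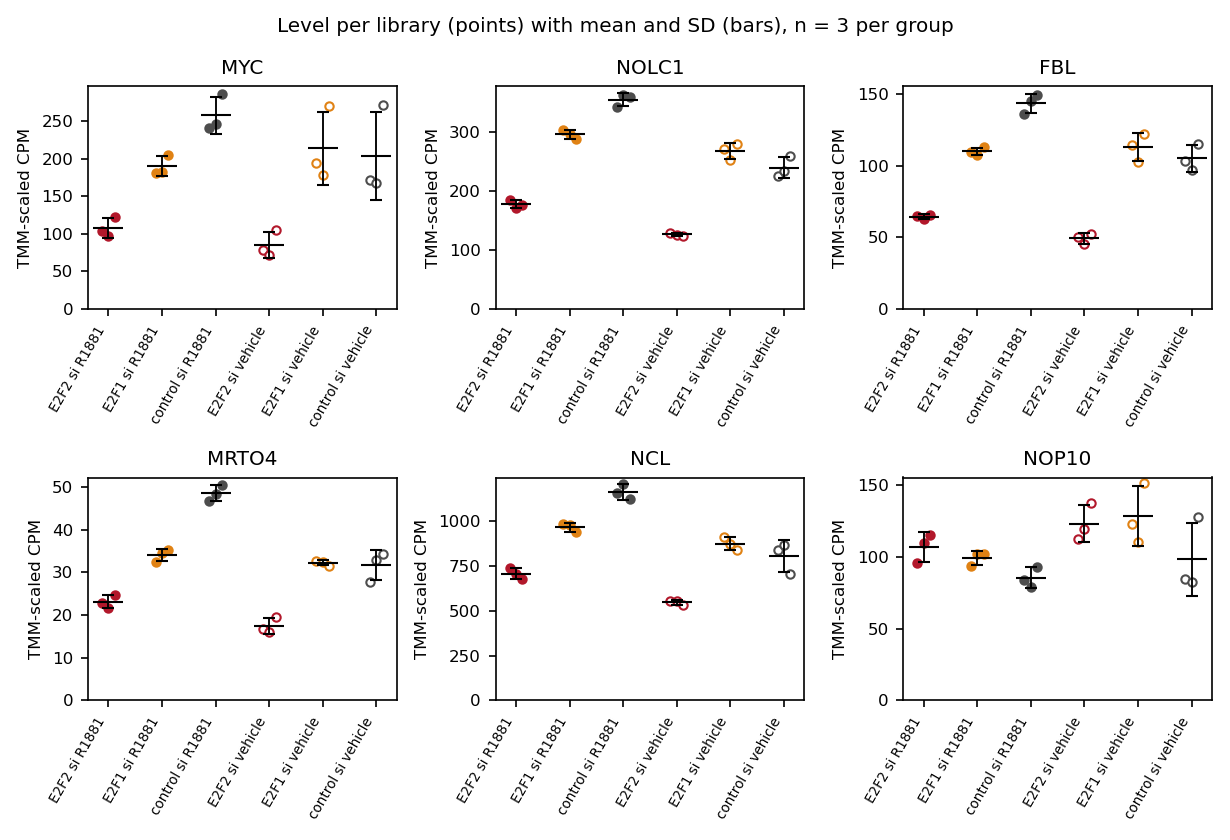
TMM-scaled CPM of 6 genes in each of the 18 libraries, with the group mean and SD (n = 3), on axes that start at 0; filled points are R1881 and open points are vehicle. For MYC, NOLC1, FBL, MRTO4 and NCL the E2F2 siRNA points lie below those of control siRNA with the same treatment, and for NOP10 the E2F2 siRNA points lie above those of control siRNA with R1881 and overlap them with vehicle.

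Fewer of these genes were called with the E2F1 pool than with the E2F2 pool. Both pools were set against the same control siRNA libraries. With R1881, 7 of the 42 fell against control siRNA and 0 rose, where 9.34% of all tested genes were called and 4.92% were called lower; the median was -0.18, against -0.01 over all tested genes. The groups did not overlap for 24 of the 42, against 32.4% of all genes. MRTO4 had 32.4, 34.5 and 35.2 CPM with E2F1 siRNA, against 46.7, 48.3 and 50.4 CPM with control siRNA, and a log2 fold change of -0.51 ± 0.10 (edgeR adjusted p = 0.00362). RRP1B, which acts on the large subunit, had 82.3, 84.5 and 89.7 CPM with E2F1 siRNA, against 106, 113 and 111 CPM with control siRNA, and changed by -0.36 ± 0.07 (edgeR adjusted p = 0.00362). FBL changed by -0.38 ± 0.09, RRS1, which brings the 5S particle into the large subunit, by -0.38 ± 0.09, and NOLC1 by -0.26 ± 0.07. NOP56 and NCL made up the 7. MYC had a log2 fold change of -0.44 ± 0.19 and was not called (edgeR adjusted p = 0.196), although its 3 E2F1 siRNA libraries lay below the 3 control libraries.

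These 7 calls rested on few libraries. The count was 2 to 6 with any 1 library left out, and 4 or fewer without E2F1 siRNA R1881 replicate 1, 2 or 3 (3, 3 and 4 calls) or without control siRNA R1881 replicate 2 or 3 (2 and 4 calls). The replicate block gave 13 calls, all lower, where 19.9% of all genes were called. It added MYC (edgeR adjusted p = 0.0021), POLR1E, NOP16, NAT10, NIP7 and TSR1 to the 7. MRTO4 and RRP1B alone of the 7 were called under every alternative. With replicates 1 and 2 alone, 27 genes were called lower and 2 higher, where 29.5% of all genes were called.

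With vehicle, 38 of the 42 genes had a higher estimate with E2F1 siRNA than with control siRNA, but only 2 rose at the threshold and 0 fell, where 5.28% of all tested genes were called and 2.36% were called higher. The median log2 fold change was 0.17, and the groups did not overlap for 4 of the 42, against 14.9% of all genes. GNL3 had 228, 216 and 219.7 CPM with E2F1 siRNA, against 185, 183 and 149 CPM with control siRNA, and changed by 0.36 ± 0.08 (edgeR adjusted p = 0.0105). POLR1C had 39.3, 38.7 and 44.5 CPM with E2F1 siRNA, against 31.4, 29.6 and 34.9 CPM with control siRNA, and changed by 0.35 ± 0.09 (edgeR adjusted p = 0.0287). MYC was not called, at 0.07 ± 0.19 (edgeR adjusted p = 0.93). The count was 7 without control siRNA vehicle replicate 3, 1 without control siRNA vehicle replicate 1 or 2 or E2F1 siRNA vehicle replicate 3, 0 without E2F1 siRNA vehicle replicate 1, 7 with the replicate block, where 12.7% of all genes were called, and 15 with replicates 1 and 2 alone, where 18.8% of all genes were called.

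Set directly against the E2F1 pool, the E2F2 pool left most of the 42 genes lower. With R1881, 32 of the 42 were lower with E2F2 siRNA than with E2F1 siRNA and 0 were higher, where 24% of all tested genes were called and 11% were called lower, and the median log2 fold change was -0.48. The groups did not overlap for 38 of the 42, against 47.6% of all genes. With any 1 library left out, 22 to 27 were called, and 21 of the 32 were called under every alternative. The replicate block called 36, where 38.5% of all genes were called, and replicates 1 and 2 alone called 39, where 44.7% were, all lower. NOLC1 had 186, 172 and 176 CPM with E2F2 siRNA, against 303, 298 and 289 CPM with E2F1 siRNA, a log2 fold change of -0.74 ± 0.07 (edgeR adjusted p = 1.51e-06), and FBL changed by -0.77 ± 0.09. MYC was lower by 0.81 on the log2 scale (SE 0.19, edgeR adjusted p = 0.00621). With vehicle, 31 were lower and 0 higher, where 30.6% of all genes were called and 14.4% were called lower, with a median of -0.66 and no overlap for 35 of the 42, against 43.4% of all genes. Those 31 were called under every alternative tried. The replicate block called 37, where 45.5% of all genes were called, and replicates 1 and 2 alone called 40, where 50.4% were, all lower. NOLC1 changed by -1.09 ± 0.07, FBL by -1.20 ± 0.09 and MYC by -1.33 ± 0.20 (edgeR adjusted p = 1.75e-08, 8.03e-08 and 9.08e-05). GNL3, which was not called for E2F2 siRNA against control siRNA, was lower with E2F2 siRNA than with E2F1 siRNA under both treatments, at -0.32 ± 0.08 with R1881 and -0.38 ± 0.08 with vehicle.

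In control siRNA cells R1881 raised most of the 42 genes. Against vehicle, 30 of the 42 genes rose and 0 fell, where 27% of all tested genes were called and 13.8% were called higher; the median log2 fold change was 0.44, against 0.00 over all tested genes. The groups did not overlap for 33 of the 42, against 35.1% of all genes. TSR1 had 161, 169.9 and 162 CPM with R1881, against 119, 114 and 104 CPM with vehicle, a log2 fold change of 0.55 ± 0.07 (edgeR adjusted p = 1.13e-05). NOLC1 had 343, 364 and 359.8 CPM with R1881, against 226, 235 and 259.7 CPM with vehicle, and NOP16 had 58.1, 62.8 and 66.5 CPM with R1881, against 34.6, 33.8 and 38.5 CPM with vehicle. In all 3 genes every R1881 library was above every vehicle library. Their log2 fold changes were 0.57 ± 0.07 for NOLC1 and 0.81 ± 0.10 for NOP16, with the largest value of the 42 at LYAR, 0.95 ± 0.13, and NCL changed by 0.53 ± 0.07 (edgeR adjusted p between 1.27e-05 for NOLC1 and 6.36e-05 for NCL). Of the 12 small subunit factors 9 rose, of the 12 large subunit factors 9, of the 6 phosphoproteins and chaperones 5, of the 3 box C/D proteins 3 and of the 4 RNA polymerase I subunits 3, but of the 4 H/ACA proteins DKC1 alone.

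MYC was not among the genes called, with a log2 fold change of 0.34 ± 0.19 (edgeR adjusted p = 0.223). It had 241, 247 and 286 CPM with R1881, against 172, 168 and 272 CPM with vehicle, and vehicle replicate 3 lay above R1881 replicates 1 and 2. The replicate block called MYC higher with R1881 (edgeR adjusted p = 0.00333). It was 1 of 8 genes the block added to the 30, where 42.1% of all genes were called. Replicates 1 and 2 alone called 38 of the 42, all higher, where 47.3% of all genes were called. A fit to the 6 control siRNA libraries alone called 11, all higher. The share of all genes called in that fit is not given here, so whether the lower count is particular to these genes cannot be read from it. Of the 30 genes, 11 were called under every alternative: NOLC1, NOP56, NOP2, NCL, RRP1B, RRS1, NOP16, WDR43, LYAR, TSR1 and MRTO4.

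After the E2F2 pool R1881 also raised some of these genes, and after the E2F1 pool the share raised was near that of all genes. In E2F2 siRNA cells 16 of the 42 genes rose with R1881 and 1 fell, where 22.8% of all tested genes were called, 11.8% higher and 11% lower; the median was 0.28, and the groups did not overlap for 31 of the 42, against 43.2% of all genes. NOP16 had 35.8, 32.7 and 31.9 CPM with R1881, against 17.8, 18.5 and 21.0 CPM with vehicle, and changed by 0.81 ± 0.11, and NOLC1 changed by 0.49 ± 0.07 (edgeR adjusted p = 3.41e-05 and 5.53e-05). The gene that fell was WDR12, of the PeBoW complex, at 43.2, 43.4 and 40.9 CPM with R1881, against 53.7, 52.8 and 49.7 CPM with vehicle (log2 fold change -0.29 ± 0.10, edgeR adjusted p = 0.0479). With the replicate block 28 rose and WDR12 fell, where 36.2% of all genes were called; with replicates 1 and 2 alone 33 rose and 2 fell, where 45.5% were called. Of the 17, 9 were called under every alternative: NOLC1, FBL, NOP56, NCL, RRS1, NOP16, LYAR, EBNA1BP2 and BYSL. In E2F1 siRNA cells 5 of the 42 (11.9%) rose and 0 fell, where 19.8% of all genes were called and 10.1% were called higher; the median was 0.14, and the groups did not overlap for 13 of the 42, against 34.2% of all genes. The 5 were TSR1, EBNA1BP2, NOP2, NOP16 and LYAR, none of which was called under every alternative. TSR1 changed by 0.22 ± 0.07 and EBNA1BP2, a large subunit factor, by 0.36 ± 0.11 (edgeR adjusted p = 0.0223 and 0.034). MYC had a log2 fold change of 0.35 ± 0.20 with E2F2 siRNA and -0.17 ± 0.19 with E2F1 siRNA, neither called; with the replicate block it was called higher with E2F2 siRNA (edgeR adjusted p = 0.006).

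Leaving out 1 library gave 0 to 4 calls in E2F1 siRNA cells: 0 without R1881 replicate 2 or 3 or vehicle replicate 2, 1 without R1881 replicate 1 and 2 without vehicle replicate 1. With the replicate block 9 genes rose and NOP10 and DDX18 fell, where 30.7% of all genes were called, and with replicates 1 and 2 alone 17 rose and 2 fell, where 38.3% were called.

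**Figure D4:**
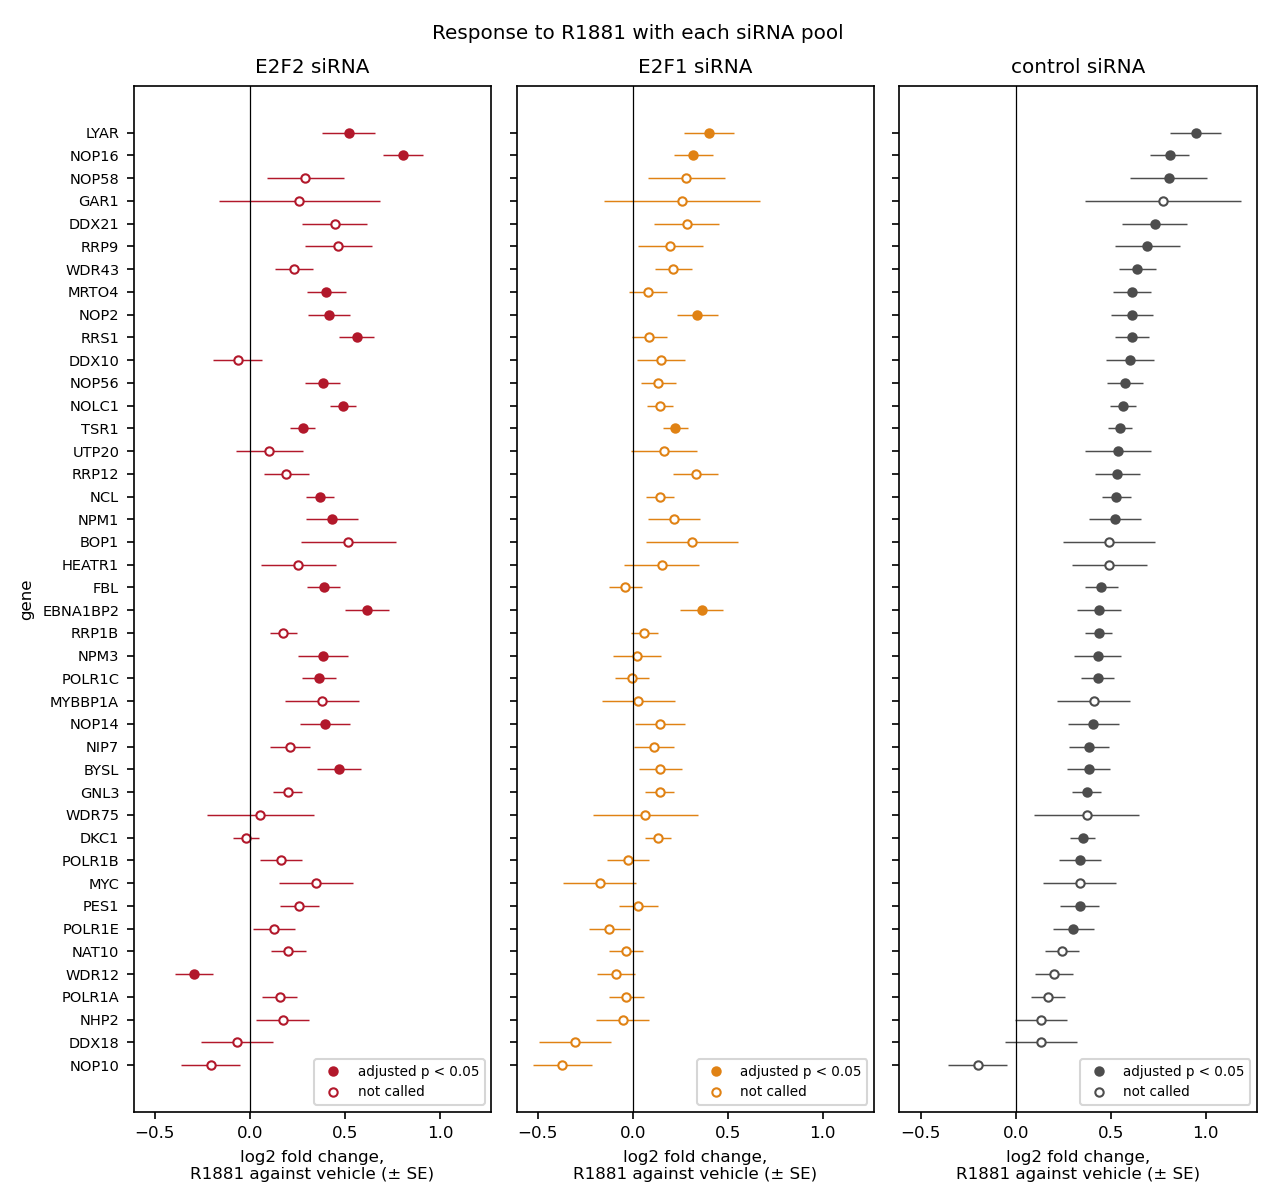
Log2 fold change of R1881 against vehicle for each of the 42 genes in E2F2 siRNA, E2F1 siRNA and control siRNA cells (left to right), with bars of ± SE from the edgeR fit; filled points passed an adjusted p of 0.05. Genes are ordered by the value in control siRNA cells, where 41 lie right of 0, against 37 with E2F2 siRNA and 31 with E2F1 siRNA.

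Whether the response itself differed was tested by the difference of the log2 responses. For the E2F1 pool against control, 0 of the 42 genes passed edgeR's adjusted p of 0.05, where 0.685% of all genes did. An unadjusted p under 0.05 was found for 20, where 10.2% of all genes had one, and DESeq2 called 10, where it called 2.3% of all genes. All 42 differences were negative, with a median of -0.38, against -0.01 over all tested genes. They share the same 3 control siRNA libraries per treatment, so they are not 42 independent observations. The smallest p was that of NOLC1, at -0.42 ± 0.10 (edgeR adjusted p = 0.0558). Next were RRS1 at -0.52 ± 0.13 (edgeR adjusted p = 0.0769) and FBL at -0.49 ± 0.12 (edgeR adjusted p = 0.0848), and MYC gave -0.51 ± 0.27 (edgeR adjusted p = 0.588). With the replicate block 13 genes were called, all negative, where 4.58% of all genes were called: MYC, NOLC1, FBL, NOP56, NCL, POLR1C, POLR1E, RRP1B, RRS1, NOP16, WDR43, TSR1 and MRTO4. The count was 7 without control siRNA vehicle replicate 3, 1 without E2F1 siRNA vehicle replicate 2 and 30 with replicates 1 and 2 alone, where 12.1% of all genes were called.

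For the E2F2 pool against control, 0 of the 42 genes passed edgeR's adjusted p of 0.05, where 0.889% of all genes did. An unadjusted p under 0.05 was found for 7, where 10.4% of all genes had one, and DESeq2 called 2, where it called 2.09% of all genes. The median difference was -0.18, and 37 of 42 were negative. MYC gave 0.01 ± 0.27 (edgeR adjusted p = 0.998). The replicate block called 4, all negative, where 4.33% of all genes were called: WDR12, DKC1, WDR43 and DDX10. Replicates 1 and 2 alone called 7, where 11.6% of all genes were called.

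The 42 genes moved together to different degrees. Over the 18 libraries, which share the same 6 groups and the same scaling, the Pearson correlation of a gene's log2 level with the median of the other 41 was 0.99 for NOLC1, 0.98 for NOP56 and 0.97 for NOP16 and BYSL, the 4 most like it, and 0.90 for MYC. It was 0.35 for DDX10, 0.39 for WDR75 and 0.42 for GAR1, and -0.46 for NOP10. NOP10 stood at 107 ± 10.3 CPM with E2F2 siRNA, 99.3 ± 4.57 CPM with E2F1 siRNA and 85.6 ± 7.15 CPM with control siRNA under R1881, and at 123 ± 12.7 CPM with E2F2 siRNA, 128 ± 21.0 CPM with E2F1 siRNA and 98.4 ± 25.4 CPM with control siRNA under vehicle (mean ± SD, n = 3 each). It was called in none of the 11 comparisons without the block, and higher or lower in 4 of them with it. WDR75 and GAR1 were very low in control siRNA vehicle replicate 3, with 59.6, 60.3 and 21.4 CPM for WDR75 and 14.5, 13.1 and 4.67 CPM for GAR1 in replicates 1, 2 and 3. Over all genes that library's deviation from the other 2 libraries of its group rose with GC content (r = 0.80 across genes). Replicate 3 of every group gave a positive r, from 0.42 to 0.80, and replicates 1 and 2 of every group a negative one. The values of replicates 1 and 2, -0.70 and -0.72 in this group, were taken against a mean that includes replicate 3.

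Other genes of the pathway were taken from 4 lists of known function, with 117 tested genes in all. These lists too were chosen with earlier results of these data known. With E2F2 siRNA and R1881, 52 of the 117 (44.4%) fell and 2 (1.71%) rose against control siRNA, with a median of -0.36, where 14.4% of all tested genes were called lower. Of 47 other small subunit factors 20 (42.6%) fell, including PDCD11 at -0.79 ± 0.08, IMP4 at -0.88 ± 0.11 and UTP4 at -0.69 ± 0.08. Of 44 other large subunit factors 23 (52.3%) fell, including RRP1 at -0.78 ± 0.10, URB2 at -0.73 ± 0.10 and NOP53 (listed as GLTSCR2) at -1.13 ± 0.16, while PAK1IP1 at 0.71 ± 0.20 and NVL, an ATPase that remodels the precursor, at 0.41 ± 0.08 rose. Of 11 snoRNP assembly factors 7 (63.6%) fell, including TCOF1 (treacle), which links RNA polymerase I to snoRNPs, at -1.38 ± 0.12, the helicase-like RUVBL1 at -0.78 ± 0.10 and WRAP53, which carries particles to Cajal bodies, at -1.04 ± 0.16. Of 15 other RNA polymerase I subunits and factors 2 (13.3%) were called lower, a share no higher than that of all genes: POLR1G (listed as CD3EAP) at -1.19 ± 0.16 and POLR2H, shared by the 3 polymerases, at -0.49 ± 0.08. Of the 13 subunits and cofactors of the nuclear RNA exosome, which trims the precursor, 6 (46.2%) fell, among them EXOSC2 at -0.97 ± 0.11, EXOSC8 at -0.99 ± 0.15 and EXOSC10 at -0.65 ± 0.11.

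With E2F2 siRNA and vehicle, 38 of the 117 (32.5%) fell and 3 rose (median -0.25), where 13.1% of all genes were called lower. With E2F1 siRNA the counts were at the background: 6 of the 117 (5.13%) were lower with R1881 (median -0.11), where 4.92% of all genes were, and 2 (1.71%) were higher with vehicle (median 0.10), where 2.36% of all genes were. With R1881 in control siRNA cells 47 (40.2%) rose and 1 fell (median 0.36), where 13.8% of all genes were called higher. The gene that fell with R1881 was POLR1D, a subunit shared by RNA polymerases I and III, at -0.37 ± 0.08. Among 10 tested partners and rivals of MYC, E2F2 siRNA with R1881 lowered MXD3, a repressor that competes for MAX, at -1.29 ± 0.25, and raised MLX, which pairs with MXD proteins, at 0.37 ± 0.09. With E2F1 siRNA and R1881 both fell, MXD3 at -1.02 ± 0.25 and MLX at -0.70 ± 0.09.

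Some of these genes also host snoRNAs: 8 of 42 (19.0%) hold at least 1 snoRNA or scaRNA gene on their own strand (DKC1, GNL3, NCL, NOP56, NOP58, POLR1C, TSR1 and WDR43), against 218 of 12459 other tested protein-coding genes (1.75%). The snoRNAs were not measured apart from their hosts, and library preparation captured exons. Exon length had a median of 4166.5 bp, against 5190 bp in the other genes, and transcript GC content a median of 49.9%, against 48.2%. Several of the 42 overlap a gene on the other strand, such as NIP7 with COG8, MRTO4 with EMC1, PES1 with TCN2 and NHP2 with RMND5B, and the strand setting of the counts was not given in the sources used here.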

How the data were processed

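The data were raw counts per gene for 18 libraries, which the authors made from exome-captured RNA reads on GRCh38; the submitters' processing notes name featureCounts (Subread 1.6.4), the aligner TopHat2 (2.0.13), Picard (1.97) and CASAVA (1.8.2). The sources used here do not state the strand setting, how reads with several matches were counted or the annotation release. From the deposited counts, edgeR 4.0.16 (R 4.3.3, limma 3.58.1) was run on all 18 libraries with 6 group means, TMM factors, its expression filter (minimum count 10, minimum total 15) and a quasi-likelihood F test, with Benjamini-Hochberg adjustment over 15185 genes and a threshold of 0.05. Each SE was taken from the log2 fold change and the F statistic (the absolute change over the root of F). The 11 comparisons were each siRNA pool against control and E2F2 against E2F1 with each treatment, R1881 against vehicle with each pool, and the differences in that response. The common biological coefficient of variation was 0.167, and tested genes held at least 99.85% of counts.

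Alternatives were RLE scaling, no filter, DESeq2 1.42.0, the replicate number as a block, a fit to only the groups compared, replicates 1 and 2 alone, and each library left out. Same-numbered libraries deviated together in 11 of 11 comparisons (every pair's correlation above 0.1). Libraries of different numbers were not compared, and replicate 3 stood apart in every group. The check therefore cannot tell whether the numbers pair the samples, and the labels do not say what a number shares. The replicate block was run as an alternative, and the main test has no block. The 42 genes, the other gene lists and the naming rule were chosen with earlier results of these data known. That rule names MYC throughout, up to 5 called genes of smallest p against control siRNA and for R1881 with control siRNA, up to 2 elsewhere, and genes called against the rest; genes named beyond it illustrate roles and were chosen with their values seen. Gene positions are from GENCODE 29 and promoter windows from RefSeq. The main edgeR fit was tested on simulated counts for E2F2 siRNA against control siRNA with R1881. Those counts did not include the difference of replicate 3, and the other steps were not tested in this way.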

Additional observations from a re-analysis of the deposited data

Results flagged for a closer look

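Without the replicate block, edgeR called none of the 42 genes for a difference in R1881 response between siRNA pools; with it, 13 were called for the E2F1 pool and 4 for the E2F2 pool. Of the 42, 20 and 7 had an unadjusted p under 0.05 for the E2F1 and E2F2 pools, where 10.2% and 10.4% of all genes had one, and DESeq2 called 10 and 2, where it called 2.3% and 2.09% of all genes. Of the other ribosome biogenesis genes, taken from the 4 lists described above, 3 passed edgeR's test of the difference itself without the block. Of all 15185 genes, 0.685% passed that test for the E2F1 pool and 0.889% for the E2F2 pool. Some genes of any list of this length can therefore pass. Whether these lists hold more such genes than other lists was not tested, and the 3 are described as single genes only. TCOF1 (treacle), which links RNA polymerase I to snoRNPs, differed between the E2F1 pool and control by -0.79 ± 0.17 on the log2 scale (edgeR adjusted p = 0.0402): its log2 response was 0.02 with E2F1 siRNA and 0.82 with control siRNA. WDR3, a small subunit processome protein, differed between the E2F2 pool and control by -0.82 ± 0.15 (edgeR adjusted p = 0.0176), with log2 responses of -0.51 with E2F2 siRNA and 0.31 with control siRNA. NOL9, a polynucleotide kinase that acts on the precursor of the large subunit RNA, differed between the same pools by -0.54 ± 0.11 (edgeR adjusted p = 0.0232), with log2 responses of -0.23 with E2F2 siRNA and 0.31 with control siRNA. WDR3 and NOL9 fell with R1881 after E2F2 siRNA and rose after control siRNA.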

How the results depend on the processing

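The numbers of the 42 genes called for E2F2 siRNA against control siRNA, and for E2F2 against E2F1 siRNA, stayed within 1.5 times the reported value under every alternative run. Counts of other comparisons that moved further are given here, and the cause was not tested. The share of all genes called is given above for the replicate block, for replicates 1 and 2 alone and for DESeq2. For the other settings it is not given, so a move in these genes cannot be told from a move in calls over all genes. For E2F1 siRNA against control siRNA with R1881 (7 calls), no filter gave 3, the replicate block 13, the fit to only those groups 13 and replicates 1 and 2 alone 29. For E2F1 siRNA against control siRNA with vehicle (2 calls) the same 4 settings gave 0, 7, 0 and 15. For R1881 with E2F1 siRNA (5 calls) they gave 0, 11, 0 and 19. For R1881 with E2F2 siRNA (17 calls), no filter gave 11, the block 29 and replicates 1 and 2 alone 35. For R1881 with control siRNA (30 calls), only those groups gave 11. For the difference in response with E2F1 siRNA (0 calls), RLE scaling gave 1, DESeq2 10, the block 13 and replicates 1 and 2 alone 30; with E2F2 siRNA (0 calls), DESeq2 gave 2, the block 4 and replicates 1 and 2 alone 7. Leaving out 1 library at a time gave 33 to 34 and 26 to 33 calls for E2F2 siRNA with R1881 and with vehicle, 2 to 6 and 0 to 7 for E2F1 siRNA with R1881 and with vehicle, 22 to 27 and 31 to 34 for E2F2 against E2F1 siRNA with R1881 and with vehicle, 12 to 15, 0 to 4 and 23 to 34 for R1881 with E2F2, E2F1 and control siRNA, and 0 to 0 and 0 to 7 for the differences with E2F2 and E2F1 siRNA.

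Over single genes and alternatives, 5524 values kept their side of the threshold, 311 gained it, 212 lost it and 1 reversed. A reversal here is a change of direction in a value called with the main settings or with the alternative. Changes of direction in values called with neither were not counted. The reversal was UTP20 for E2F2 siRNA against control siRNA with vehicle, -0.18 with replicates 1 and 2 alone and 0.04, not called, with all. The replicate block changed 75 calls of single genes, all of them gained; it changed no other call. No comparison has more than 3 libraries a group, and depth was not varied.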
